A study of Mus musculus with 20 samples.

Results

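The transcripts described here are those of the MYC, MAX and MXD network in mouse germinal centre B cells. The network was taken as 10 genes chosen by name, Myc, Mycn, Max, Mga, Mnt, Mxd1, Mxd3, Mxd4, Mxi1 and Mlx, out of 23382 gene symbols in the deposited tables, and all 10 were found. RNA had been sequenced from 20 libraries of sorted cells in 4 groups of 5. Centroblasts, which divide in the dark zone, were sorted as B220+FAS+GL7+CXCR4+CD86-, and centrocytes, the cells of the light zone where antigen and T cell help are tested, as B220+FAS+GL7+CXCR4-CD86+. Every group carried Cgamma1Cre +/-, a Cre recombinase driven from the immunoglobulin gamma 1 constant region, which acts in B cells that have begun a germinal centre reaction and not in all B cells. Control libraries were wild type for Myd88L252P, and mutant libraries were Myd88L252P +/-, the mouse counterpart of the activating MYD88 mutation of human B cell lymphoma. No age is given in the labels, which also do not state that each library is a mouse of its own, so the p-values describe the spread among these libraries, and part of that spread may be technical.

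MAX is the shared partner of the network. MYC and MYCN bind DNA as pairs with MAX at the E-box CACGTG and raise transcription, largely of genes for ribosome production, nucleotide synthesis and growth. The MXD proteins (MXD1, MXI1, MXD3, MXD4), MNT and MGA pair with the same MAX and bind the same E-box, but recruit repressors: MXD proteins and MNT bring the SIN3 histone deacetylase complex, and MGA belongs to a polycomb complex with E2F6, PCGF6 and L3MBTL2. MLX links this network to the glucose sensors MondoA (Mlxip) and ChREBP (Mlxipl), and can also pair with MNT and some MXD proteins. In the germinal centre, MYC is known to be present in few B cells, mainly light zone cells selected for another round of division, and to be repressed in the dark zone by BCL6.

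The genes lie apart in the genome, on build GRCm38 with GENCODE M21 positions. Myc is at chr15:61985391-61990374 on the plus strand, Max at chr12:76937269-76962201 on the minus strand and Mycn on the same chromosome at chr12:12936093-12941914 on the minus strand. Among the repressors, Mga spans chr2:119897228-119969581 (plus strand), Mnt chr11:74830920-74845725 (plus), Mxd1 chr6:86647042-86669161 (minus), Mxd3 chr13:55325168-55329823 (minus), Mxd4 chr5:34173883-34187720 (minus) and Mxi1 chr19:53310518-53375810 (plus), and Mlx is at chr11:101087277-101092207 (plus). All 10 are annotated as protein coding. Their transcripts differ widely in length: the longest coding transcript of Mga has 13931 bases in 24 exons, and that of Mxd3 1327 bases in 6 exons.

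The E-box that the network's own proteins bind is present in several of its promoters. RefSeq promoters on GRCm38.p6 (250 bases before to 50 after the start) were found for 9 of the 10 genes, and CACGTG, which reads the same on both strands, occurred in 4 of these 9 (44.4%). The same 6 letters occurred in 7.15% of 32851 promoters of this length and in 12.2% of the 8150 tested genes with a promoter. The matches began 123 bases before the RefSeq start in Mnt, 219 before it in Mxd4 and 40 before it in Mlx, and in Max the match crossed the start itself. The promoters of Mnt, Mxd4 and Mlx are shown because they hold the E-box complete, in capitals, upstream of genes whose levels are compared below. That of Mxd3 is shown because Mxd3 was the member that was lower in centrocytes. Its capitals mark the reverse complement of TTCCCGCC, an E2F-type motif. On either strand this motif occurred in 2.19% of all promoters and in 4.90% of the tested genes with a promoter. Bases that lie inside the annotated GENCODE transcripts are left out, and each is read 5′ to 3′ on the strand of its gene.
Mnt, chr11:74830674-74830919, plus strand: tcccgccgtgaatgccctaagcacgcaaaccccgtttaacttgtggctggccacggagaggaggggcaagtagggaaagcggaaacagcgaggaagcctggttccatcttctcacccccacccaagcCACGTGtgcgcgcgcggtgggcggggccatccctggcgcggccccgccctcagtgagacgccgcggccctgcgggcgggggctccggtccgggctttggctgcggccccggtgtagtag
Mxd4, chr5:34187721-34187960, minus strand: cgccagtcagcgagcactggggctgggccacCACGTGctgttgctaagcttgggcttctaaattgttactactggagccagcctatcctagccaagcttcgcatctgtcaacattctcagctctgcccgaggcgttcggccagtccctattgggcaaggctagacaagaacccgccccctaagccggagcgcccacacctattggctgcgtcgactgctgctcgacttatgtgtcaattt
Mlx, chr11:101087040-101087276, plus strand: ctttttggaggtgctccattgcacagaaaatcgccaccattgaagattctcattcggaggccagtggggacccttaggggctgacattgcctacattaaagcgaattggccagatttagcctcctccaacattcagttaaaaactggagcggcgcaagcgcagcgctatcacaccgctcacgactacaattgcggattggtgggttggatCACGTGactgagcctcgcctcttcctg
Mxd3, chr13:55329824-55329981, minus strand: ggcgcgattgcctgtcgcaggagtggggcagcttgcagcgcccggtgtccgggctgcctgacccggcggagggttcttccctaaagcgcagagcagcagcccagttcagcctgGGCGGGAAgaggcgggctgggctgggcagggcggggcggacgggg

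In other E2F-type motifs searched on both strands, TTTGGCGC occurred in Mycn, at 183 and 168 bases before the start, against 0.514% of all promoters, and TTTCCCGC occurred in none of the 9 promoters, against 1.07%. These matches are letters in a window and do not show that a protein was bound there.

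The values are TPM, a level per unit of transcript length with a sum that is equal for all libraries, so levels of different genes can be compared. Of the 10 members, 9 passed the filter on low values (at least 1 TPM in at least 5 libraries), as did 11386 genes in all. Differences are given as log2 fold changes of TPM + 1 with their standard errors, from limma with p-values adjusted by the method of Benjamini and Hochberg over the 11386 genes, and a gene is said to have risen or fallen where the adjusted p was under 0.05. On this scale the changes of low genes such as Mxd1 and Mxi1 are understated. A lower level in bulk RNA can mean fewer cells that express a gene or less RNA per cell, and these cannot be told apart.

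The sort and the cell type were checked on their markers. Cxcr4, a gene of the sort, was 575 TPM ± 28.3 (SD, n = 5) in control centroblasts and 304 ± 17.7 in control centrocytes, and Cd86 was 143 ± 30.0 and 318 ± 11.7. In mutant centroblasts and centrocytes Cxcr4 was 396 ± 114 and 167 ± 14.8 TPM (SD, n = 5), and Cd86 107 ± 17.2 and 251 ± 52.2. Cxcr4 was thus called lower in mutants in both zones (-0.59, adjusted p = 0.027, and -0.86, adjusted p = 0.00277). The lowest mutant centroblast library, at 234 TPM of Cxcr4, lay below the lowest control centrocyte library (277). All 11 listed germinal centre B cell markers passed the filter. Myd88 itself, whose mutation is a base change that need not alter its level, had group means between 74.4 and 88.8 TPM. Mutant centroblast libraries 4 and 5 stood apart from the other 18: ribosomal protein genes made up 12.5% and 17.1% of their TPM, against 7.37% to 10% elsewhere, and they had 12895 and 12719 genes above 0, against 13053 to 14092. The main results that rest on mutant centroblasts are therefore given with and without these libraries. Markers of other cells also differed between groups. The summed level of 16 macrophage, monocyte and neutrophil markers, of which 11 passed the filter, was 62.5 to 84.4 TPM in control centroblasts, 56.5 to 128 in mutant centroblasts, 179 to 283 in control centrocytes and 158 to 336 in mutant centrocytes. That of plasma cell markers was higher in centroblasts, at 3173 to 3860.2 and 3254 to 4198 TPM in control and mutant centroblasts and 1937 to 2265 and 1764 to 2479.7 in centrocytes. T and NK cell markers, of which 3 of 13 passed, summed to 102 to 232, 166 to 248, 180.3 to 298 and 206 to 249.8 TPM in the same 4 groups as the macrophage markers. The sum of naive and memory B cell markers, of which 10 passed, was 292 to 380.2, 179 to 329, 713 to 1091 and 1008 to 1169.8 TPM. No marker of these lists was at 0 in all libraries. Erythroid markers, of which 4 passed and 2 were at 0 throughout, summed to 135 ± 93.6 TPM (SD, n = 5) and 138 ± 89.6 in control centroblasts and centrocytes and to 559 ± 196 and 401 ± 131 in the mutants. The part of these markers in the results below was not tested.

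Max was the most abundant member in 3 of the 4 groups, and Myc ranked higher in centrocytes than in centroblasts. In control centroblasts the order of mean TPM was Max, Mxd3, Mxd4, Mlx, Myc, Mnt, Mga, Mxd1, Mxi1. The ranges of Max and Mxd3, of Mxd4 and Mlx, of Myc, Mnt and Mga as neighbours, and of Mxd1 and Mxi1 overlapped, whereas Mxd3 and Mxd4, Mlx and Myc, and Mga and Mxd1 were separated. In control centrocytes the order was Max, Mxd4, Mxd3, Myc, Mlx, Mnt, Mga, Mxd1, Mxi1, so that Myc stood above Mlx without overlap. In mutant centrocytes Myc was the next most abundant after Max, although its range overlapped that of Mxd3. In mutant centroblasts Mxd3 had a higher mean than Max, with overlapping ranges. Among all tested genes, the mean of Myc was above that of 49.5% in control centroblasts and of 77.2% in control centrocytes.

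**Figure D1:**
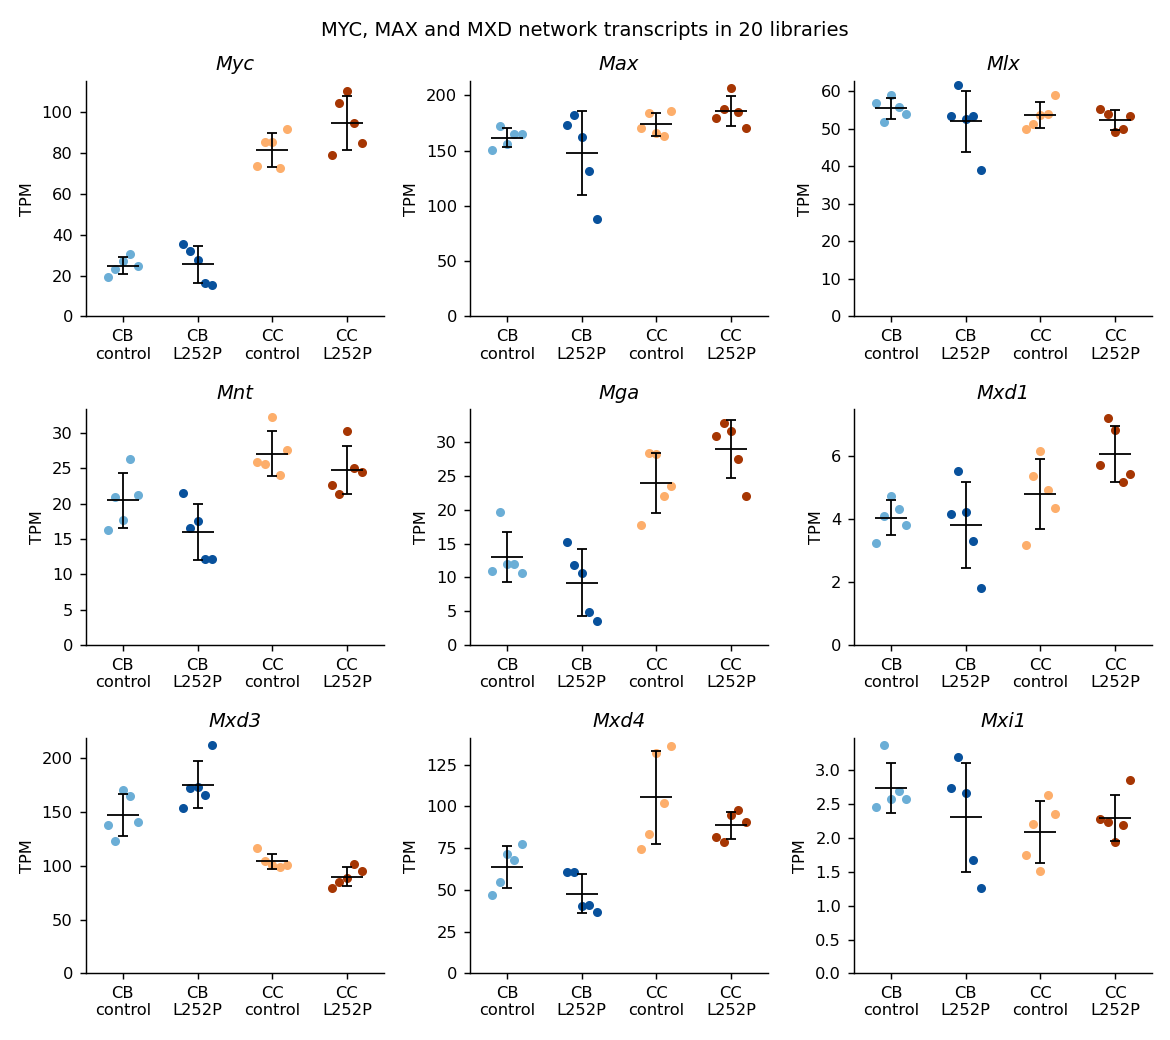
TPM (vertical axes, linear from 0) of the 9 members that passed the filter, in each of 20 libraries (points, in order of library number) by group, with the mean and SD of each group of 5 in black; CB, centroblasts; CC, centrocytes; L252P, Myd88L252P +/-. Myc lies at 15.5 to 35.6 TPM in the 10 centroblast libraries and at 72.5 to 110.2 in the 10 centrocyte libraries, and Mxd3 is the member with higher values in centroblasts.

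Myc was higher in centrocytes than in centroblasts in both genotypes. It was 19.1, 23.2, 26.9, 30.4 and 24.7 TPM in control centroblasts 1 to 5 and 73.3, 85.1, 85.0, 72.5 and 91.6 in control centrocytes. In the mutants it was 35.6, 32.1, 27.6, 16.3 and 15.5 TPM in centroblasts and 78.8, 104, 110.2, 94.4 and 84.5 in centrocytes. Every centrocyte library was above every centroblast library. A lack of overlap between the zones, in either direction, was seen in 26.5% of all tested genes in controls and 36.6% in mutants. The lowest values of Myc were those of the 2 mutant centroblast libraries that stood apart. The log2 fold change of Myc was 1.68 ± 0.18 (SE, adjusted p = 7.39e-07) in controls and 1.92 ± 0.18 (adjusted p = 4.90e-08) in mutants. Without mutant centroblasts 4 and 5 the value in mutants was 1.54 ± 0.13 (adjusted p = 1.98e-08). The other MYC gene measured, Mycn, was listed at 0 in 18 libraries and at 0.17 and 0.0912 TPM in mutant centrocytes 1 and 4, and was not tested.

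Between the zones, 4 members rose and 1 fell in controls (5 of 9 tested), against a background of 30.7% of all tested genes called, 21.2% higher and 9.48% lower. In mutants 6 rose and 1 fell, against 61.5% called, 48.8% higher and 12.6% lower. Without mutant centroblasts 4 and 5 the count of members in mutants was 4 (44.4%) and 1 (11.1%). In that fit 5773 of 11386 genes were called, 4079 higher and 1694 lower. The median log2 fold change of the 9 members was 0.185 in controls, where that of all genes was 0.136, and 0.602 in mutants, where that of all genes was 0.336. Most genes were thus above 0 in these comparisons, and values are best read against these medians. With the libraries rescaled by the median ratio over genes, calls over all genes were 2212 higher and 1830 lower in controls, in place of 2419 and 1079, and 3611 higher and 3044 lower in mutants, in place of 5561 and 1436. Under that scaling 3 members rose and 2 fell in controls, and 5 rose and 2 fell in mutants. The zone comparisons share no library, but each shares groups with a comparison of genotypes.

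**Figure D2:**
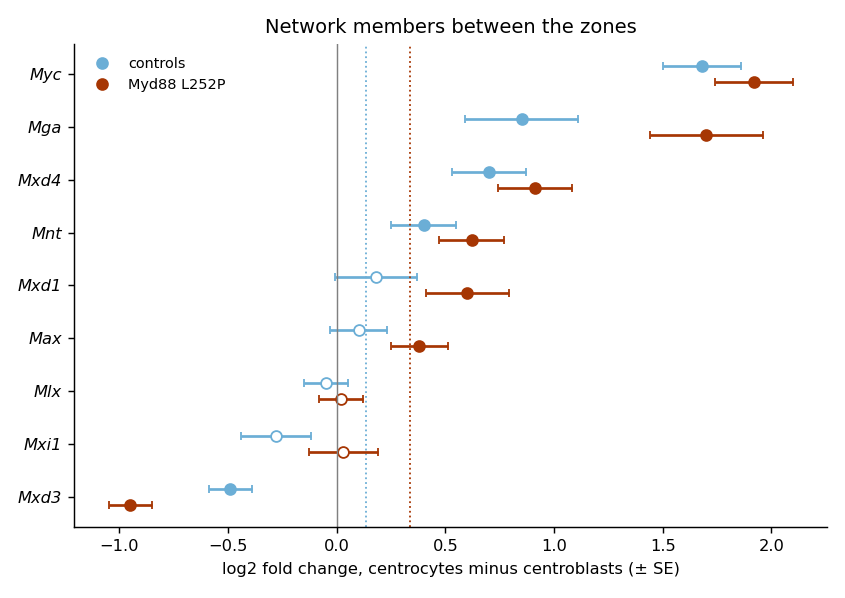
Log2 fold change of TPM + 1 from centroblasts to centrocytes (horizontal axis, points with SE) for the 9 tested members in controls and in Myd88L252P +/- mutants; filled points have an adjusted p under 0.05, and dotted lines mark the median of all 11386 genes in each genotype. Myc has the highest value in both genotypes (1.68 and 1.92), and Mxd3 is the only one of the 9 with a filled point below 0 in both.

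Max, the common partner, overlapped between the zones in both genotypes. It was 151, 172, 156, 165 and 165 TPM in control centroblasts and 170.1, 184, 166, 163 and 186 in control centrocytes, which overlap (log2 fold change 0.10, adjusted p = 0.581). In mutants it was 173, 182, 162, 132 and 88.5 TPM in centroblasts and 179.5, 188, 207, 185 and 170.1 in centrocytes, a rise of 0.38 ± 0.13 (SE, adjusted p = 0.0181). That rise rested on the low centroblast libraries 4 and 5: without them the log2 fold change was 0.11 with an adjusted p of 0.204. Under median-of-ratios scaling the call in mutants was also lost, and the value in controls turned to -0.015.

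The repressor members went in opposite directions. Mxd3, which encodes an MXD protein known for its expression in proliferating cells in S phase, was the member that fell. It was 138, 123, 170.0, 165 and 141 TPM in control centroblasts and 116, 104, 101, 99.2 and 100.3 in control centrocytes. In mutants it was 154, 172, 173, 166 and 212 TPM in centroblasts and 79.4, 85.0, 88.2, 102 and 95.3 in centrocytes. The zones did not overlap in either genotype, a separation seen in 26.5% of all tested genes in controls and 36.6% in mutants. The log2 fold change of Mxd3 was -0.49 ± 0.10 (SE, adjusted p = 0.000812) in controls and -0.95 ± 0.10 (adjusted p = 1.52e-07) in mutants. Without mutant centroblasts 4 and 5 it was -0.88 ± 0.10 (adjusted p = 5.58e-07) in mutants.

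Mxd4, an MXD gene associated with cells that leave the cycle, was higher in centrocytes. It was 47.1, 54.9, 71.7, 68.1 and 77.4 TPM in control centroblasts and 74.3, 83.7, 132, 102 and 136 in control centrocytes, where only control centroblast 5 lay above the lowest centrocyte library. In mutants it was 60.7, 60.5, 40.3, 40.8 and 36.8 TPM in centroblasts and 81.6, 78.9, 94.8, 97.6 and 90.6 in centrocytes, without overlap, as in 36.6% of all genes. The log2 fold change of Mxd4 was 0.70 ± 0.17 (SE, adjusted p = 0.00434) in controls and 0.91 ± 0.17 (adjusted p = 0.000182) in mutants, where it was 0.73 (adjusted p = 0.00439) without centroblasts 4 and 5. Mxd3 and Mxd4 together made up nearly all MXD transcripts, and their balance differed by zone. Mxd3 was 67.7% ± 3.52 (SD, n = 5) of the MXD total in control centroblasts and 48.7% ± 7.65 in control centrocytes, and Mxd4 was 29.2% ± 3.5 and 48.1% ± 7.63. In mutants Mxd3 was 76.4% ± 5.98 (SD, n = 5) in centroblasts and 48.1% ± 1.5 in centrocytes. Without centroblasts 4 and 5 the share in mutant centroblasts was 73.1% ± 4.82 (SD, n = 3).

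Mga, which encodes the largest protein of the network, with a T-box domain beside the domain that pairs with MAX, was also higher in centrocytes. It was 11, 19.6, 11.9, 12 and 10.6 TPM in control centroblasts and 17.8, 28.4, 28.2, 22.0 and 23.5 in control centrocytes, with control centroblast 2 inside the centrocyte range. In mutants it was 15.3, 11.8, 10.6, 4.89 and 3.49 TPM in centroblasts and 30.9, 32.8, 31.7, 27.5 and 22.1 in centrocytes, which did not overlap, as in 36.6% of all genes. The log2 fold change of Mga was 0.85 ± 0.26 (SE, adjusted p = 0.0185) in controls and 1.70 ± 0.26 (adjusted p = 2.08e-05) in mutants. In controls the call was lost without control centrocyte 3 (0.786, adjusted p = 0.05). In mutants the lowest values were again those of centroblast libraries 4 and 5, without which the rise was 1.14 ± 0.18 (adjusted p = 4.05e-05), and the part of library quality in the level of so long a transcript was not tested.

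Mnt, the member of the repressor arm that is found in most cell types, was 16.2 to 26.3 TPM in control centroblasts (median 20.9) and 24.0 to 32.3 in control centrocytes (median 25.9). The 0.40 ± 0.15 rise of Mnt in controls (SE, adjusted p = 0.0495) lay close to the threshold and was lost in 15 of 20 fits that left out a library. In mutants Mnt was 21.5, 16.5, 17.6, 12.2 and 12.2 TPM in centroblasts and 22.6, 21.4, 30.2, 25 and 24.5 in centrocytes (0.62, adjusted p = 0.00145), and mutant centroblast 1 alone reached into the centrocyte range. Without centroblasts 4 and 5 the rise of Mnt in mutants was 0.40 (adjusted p = 0.0226).

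Mxd1 and Mxi1, which are known for induction in differentiating cells, were the lowest of the tested members. Mxd1 was 3.25 to 4.74 TPM in control centroblasts and 3.18 to 6.16 in control centrocytes, without a call (0.18, adjusted p = 0.475). In mutants Mxd1 was 1.80 to 5.54 TPM in centroblasts and 5.18 to 7.22 in centrocytes, a rise of 0.60 (adjusted p = 0.00886) that was 0.326 (adjusted p = 0.11) without centroblast libraries 4 and 5. Mxi1 was 2.45 to 3.37 and 1.51 to 2.64 TPM in control centroblasts and centrocytes (-0.28, adjusted p = 0.195), and 1.26 to 3.19 and 1.94 to 2.86 TPM in mutants (0.03, adjusted p = 0.883). Under median-of-ratios scaling Mxi1 was called lower in controls (-0.361, adjusted p = 0.0473).

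Mlx had the narrowest range of the 9 tested members relative to its level. It was 56.8, 51.7, 59.0, 55.8 and 54.0 TPM in control centroblasts and 50, 51.4, 53.8, 54.0 and 59.1 in control centrocytes (-0.05, adjusted p = 0.735). In mutants it was 53.5, 61.6, 52.6, 53.4 and 38.9 TPM in centroblasts and 55.3, 53.9, 49.2, 50 and 53.5 in centrocytes (0.02, adjusted p = 0.839). The groups overlapped, with mutant centroblast 5 the only library under 49.2 TPM. This depended on the scale: under median-of-ratios scaling the value of Mlx in mutants was -0.289 (adjusted p = 0.00511). Its partner MondoA, encoded by Mlxip, was 22.1 ± 4.42 TPM (SD, n = 5) in control centroblasts and 30.6 ± 6.33 in control centrocytes (0.45, adjusted p = 0.146), and rose in mutants from 15.3 ± 6.88 to 29.8 ± 6.22 (1.01, adjusted p = 0.00095), a rise that was 0.56 (adjusted p = 0.0171) without mutant centroblasts 4 and 5. Mlxipl, the gene of ChREBP, was below the filter.

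Relative to its partner and to its competitors, MYC transcript was higher in centrocytes, while the summed level of the competitors overlapped between all groups. The ratio of MYC gene TPM (Myc and Mycn) to Max TPM was 0.153 ± 0.0246 (SD, n = 5) in control centroblasts and 0.468 ± 0.0334 in control centrocytes. It was 0.170 ± 0.0297 and 0.506 ± 0.0423 in the mutants, and 0.184 ± 0.0191 (SD, n = 3) in mutant centroblasts without libraries 4 and 5. The summed TPM of the 6 repressor genes Mnt, Mga, Mxd1, Mxd3, Mxd4 and Mxi1 was 251 ± 28.7 (SD, n = 5), 255 ± 16.7, 267 ± 28.1 and 241 ± 16, respectively, in control centroblasts, mutant centroblasts, control centrocytes and mutant centrocytes. The ratio of MYC gene TPM to that sum was 0.0985 ± 0.00809 (SD, n = 5) in control centroblasts and 0.306 ± 0.0243 in control centrocytes. In mutant centrocytes this ratio was 0.351 to 0.457, above the 0.282 to 0.342 of control centrocytes, although neither Myc nor any repressor gene passed the test between these groups. With Mga left out of the sum the ratio was 0.311 to 0.386 in control and 0.386 to 0.533 in mutant centrocytes, so that the groups met. In mutant centroblasts it was 0.0581 to 0.138 and split: libraries 1 to 3 lay above the highest control centroblast (0.109), and libraries 4 and 5, which stood apart, below the lowest (0.0875). These ratios are descriptions of transcripts, not of protein, and were given no test.

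**Figure D3:**
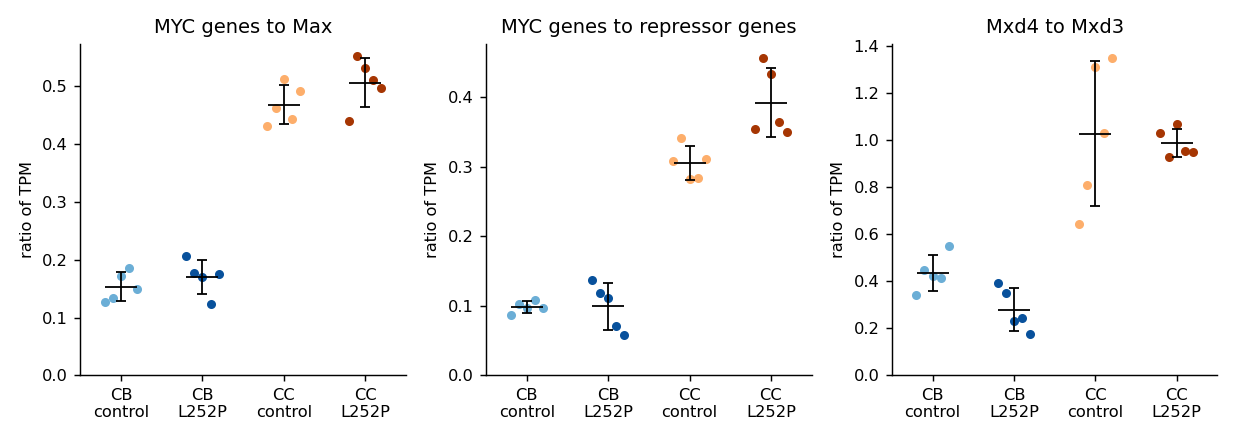
Ratios of TPM (vertical axes, linear from 0) in each library (points, in order of library number) with group mean and SD in black: Myc plus Mycn to Max, Myc plus Mycn to the sum of Mnt, Mga, Mxd1, Mxd3, Mxd4 and Mxi1, and Mxd4 to Mxd3. The first 2 ratios are higher in all centrocyte libraries than in all centroblast libraries, and Mxd4 to Mxd3 has means of 0.435 and 0.280 in control and mutant centroblasts and 1.03 and 0.988 in centrocytes (0.326 in mutant centroblasts without libraries 4 and 5).

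Between the genotypes no member passed the test in either zone. In centroblasts 0 of 9 members were called, against 4.29% of all tested genes (103 higher, 0.905%, and 385 lower, 3.38%), and 4 had an unadjusted p under 0.05, against 30.3% of all genes. In centrocytes 0 of 9 were called, against 1.20% (0.896% higher and 0.307% lower), and 1 had an unadjusted p under 0.05, against 9.61%. The ranges of control and mutant libraries overlapped for all 9 members in both zones, whereas 3.74% of all genes in centroblasts and 4.63% in centrocytes had no overlap. Median log2 fold changes in centroblasts were -0.178 for the members and -0.157 for all genes, and in centrocytes 0.096 and 0.016. With median-of-ratios scaling, calls over all genes in centroblasts were 282 higher and 324 lower.

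Myc was 24.8 ± 4.24 TPM (SD, n = 5) in control and 25.4 ± 9.14 in mutant centroblasts, with a log2 fold change of -0.03 ± 0.18 (SE, adjusted p = 0.927). Mutant centroblasts 1 to 3, at 35.6, 32.1 and 27.6 TPM, were above the control mean, and 4 and 5 were below the lowest control. Without libraries 4 and 5 the log2 fold change of Myc was 0.352 (adjusted p = 0.171). In centrocytes Myc was 81.5 ± 8.31 TPM (SD, n = 5) in controls and 94.4 ± 13.0 in mutants, and 4 of 5 mutant libraries were above the control mean (0.20 ± 0.18 SE, adjusted p = 0.941).

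Among the repressors, the smallest unadjusted p-values in centroblasts belonged to Mxd3, Mxd4, Mnt and Mga. Mxd3 was above the control mean in 5 of 5 mutant centroblast libraries (147 ± 19.8 and 175 ± 21.8 TPM, SD, n = 5; 0.25, adjusted p = 0.105), and Mxd4 was above it in 0 of 5 (63.8 ± 12.5 and 47.8 ± 11.8 TPM; -0.42, adjusted p = 0.119). Mga was 13.0 ± 3.73 and 9.23 ± 4.94 TPM (-0.58, adjusted p = 0.143), and Mnt was 20.4 ± 3.89 and 16 ± 3.94 (-0.35, adjusted p = 0.13). All 4 were called when mutant centroblast 1 was left out, with adjusted p-values of 0.0243 for Mga, 0.0271 for Mnt, 0.0372 for Mxd3 and 0.0357 for Mxd4. That fit called 3102 of all genes in place of 488, and it leaves libraries 4 and 5 as 2 of the 4 remaining mutants. Without libraries 4 and 5, in contrast, 0 members were called in centroblasts, and Mga was at -0.03 (adjusted p = 0.973), Mnt at -0.13 (adjusted p = 0.771), Mxd4 at -0.24 (adjusted p = 0.649) and Mxd3 at 0.18 (adjusted p = 0.408). In centrocytes Mxd3 was above the control mean in 0 of 5 mutant libraries (104 ± 6.70 and 90 ± 8.87 TPM, SD, n = 5; -0.21, adjusted p = 0.507).

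Whether the genotype effect differed between the zones was tested as a difference of the log2 fold changes. In that test 0 of 9 members were called, against 0.0176% of all genes (2 genes), and 2 members had an unadjusted p under 0.05, against 11.6% of all genes. They were Mxd3, whose difference was -0.46 ± 0.14 (SE, adjusted p = 0.403), and Mga, whose difference was 0.85 ± 0.37 (SE, adjusted p = 0.403). That of Myc was 0.23 ± 0.26 (SE, adjusted p = 0.627). The larger zone differences of Mxd3 and Mga in mutants than in controls did not pass this test, and without mutant centroblasts 4 and 5 the values were -0.39 for Mxd3 (adjusted p = 0.669) and 0.30 for Mga (adjusted p = 0.988).

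**Figure D4:**
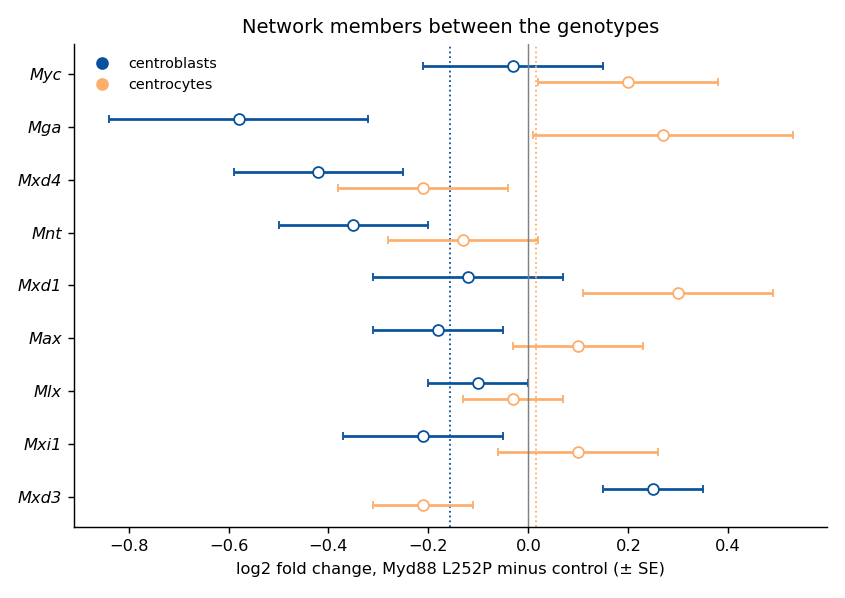
Log2 fold change of TPM + 1 from control to Myd88L252P +/- (horizontal axis, points with SE) for the 9 tested members in centroblasts and in centrocytes; open points have an adjusted p of 0.05 or more, and dotted lines mark the median of all 11386 genes in each zone. All 18 points are open, with Mga at -0.58 in centroblasts and Mxd1 at 0.30 in centrocytes the values farthest from 0 in each zone.

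Within groups some pairs of members varied together, and others did not once mutant centroblast libraries 4 and 5 were left out. Over deviations from the group means in 20 libraries, Pearson's r was 0.82 for Myc and Max, 0.78 for Myc and Mga and 0.65 for Myc and Mxd4. Over the 18 libraries without those 2, the same pairs had r of 0.64, 0.34 and 0.61. Mga and Mxd3 had r of -0.61 with and -0.62 without mutant centroblasts 4 and 5. Other pairs were near 0 or negative without these libraries. Myc and Mlx had r of 0.50 with and 0.06 without them, Myc and Mxi1 0.56 and -0.16, and Mnt and Mlx 0.19 and -0.36. These points share their library, its scaling and its sort, so the values describe covariation and carry no p.

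The genes whose log2 levels were most like those of Myc over the 20 libraries were H2-DMb2, Snn, Kdm6b, Bhlhe40, Fam43a and Egr3, with Pearson's r between 0.978 and 0.980. Egr3, an immediate early gene of antigen receptor signalling, was 5.06 ± 1.84 TPM (SD, n = 5) in control centroblasts and 38.9 ± 12.6 in control centrocytes. Those most like Mxd3 were H2afv, Cenpm, Rnaseh2c, Lsm4, Elof1 and Ndufs7 (r from 0.960 to 0.969). H2afv, which encodes a histone H2A variant, was 292 ± 21.7 TPM (SD, n = 5) in control centroblasts and 158 ± 12.1 in control centrocytes, and Cenpm, a centromere gene, 87.8 ± 10.8 and 61.5 ± 4.54. Those most like Mxd4 were Fam102a, Il4ra, Phf23, Pigs, Clip2 and Fmnl3 (r from 0.922 to 0.936). Il4ra, the receptor chain for interleukin 4, was 115 ± 19.4 TPM (SD, n = 5) in control centroblasts and 146 ± 23.7 in control centrocytes. These values include the differences between the 4 groups.

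Genes of ribosome biogenesis that MYC is known to activate were higher in centrocytes. Of 30 such genes, all tested, 25 rose (83.3%, against 21.2% of all genes) and 1 fell from control centroblasts to control centrocytes. Their median log2 fold change was 0.456 against 0.136 for all genes. In mutants 27 rose (90%, against 48.8% of all genes) and 1 fell, with a median of 0.740 against 0.336. Gnl3, a nucleolar GTPase, rose by 1.28 (adjusted p = 2.59e-07) in controls, from 44.9 ± 6.35 to 109.7 ± 10.7 TPM (SD, n = 5). Polr1b, a subunit of RNA polymerase I, rose by 0.98, Nolc1 by 0.72 and the nucleolar chaperone gene Npm1 by 0.64, and Bysl, an assembly factor of the small ribosomal subunit, was the member that fell (-0.23, adjusted p = 0.0363). Under median-of-ratios scaling 20 rose and 1 fell in controls, where 2212 and 1830 of all 11386 genes did. With that scaling 19 rose and 2 fell in mutants, where 3611 and 3044 of all genes did. Without mutant centroblasts 4 and 5, 26 rose and 1 fell in mutants, where 4079 and 1694 of all genes did.

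Targets in metabolism and translation were split. Of 32 tested, 13 rose and 1 fell in controls (median 0.206), and 15 rose and 1 fell in mutants (median 0.273). The share that rose was 40.6% in controls, against 21.2% of all genes, and 46.9% in mutants, near the 48.8% of all genes. Without mutant centroblasts 4 and 5 the share in mutants was 50%, where 4079 of 11386 genes rose. In controls the transferrin receptor gene Tfrc rose by 0.83, the spermidine synthase gene Srm by 0.86, the mitochondrial chaperone gene Hspd1 by 0.59 and the DNA repair gene Apex1 by 0.51. Ldha was at -0.0 and Odc1, the enzyme that begins polyamine synthesis, at 0.16 (adjusted p = 0.341). Under median-of-ratios scaling 12 fell and 11 rose in mutants, where 3044 and 3611 of all 11386 genes did. The direction of this group in mutants thus depended on the scaling. Promoters of these targets held CACGTG in 11 of 30 (36.7%), and those of the ribosome biogenesis genes in 5 of 25 (20%), beside the 12.2% of tested genes above.

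Targets in the cell cycle were called in both directions. Of 15 tested, 2 rose (13.3%) and 3 fell in controls, beside 21.2% and 9.48% of all genes, and 2 rose and 6 fell under median-of-ratios scaling. In mutants 5 rose and 3 fell, but 3 rose and 7 fell under that scaling. Ccnd2, the gene of cyclin D2, rose by 2.97 (adjusted p = 5.41e-07), from 1.99 ± 1.05 to 21.8 ± 4.19 TPM (SD, n = 5), and Tfap4, a MYC-induced E-box factor, rose by 0.58, while Mcm5, Cks2 and Ccna2, genes of replication and division, fell (-0.47, -0.35 and -0.34). Of 22 genes of G2 and M phase 14 fell (63.6%) and 0 rose in controls (median -0.590). Of 22 genes of S phase 8 fell (36.4%) and 0 rose (median -0.195), where 9.48% of all genes fell. The S phase count was 17 under median-of-ratios scaling and 14 without mutant centroblasts 4 and 5, where 1830 and 1626 of 11386 genes fell. In mutants 16 G2 and M phase genes fell (72.7%) and 0 rose, where 12.6% of all genes fell. Of the S phase genes 7 fell (31.8%) and 1 rose in mutants. Under median-of-ratios scaling 19 S phase genes fell and 0 rose in mutants, where 3044 of all genes fell. Without mutant centroblasts 4 and 5, 16 S phase genes fell and 0 rose in mutants, where 1694 of all genes fell. Mxd3 thus moved in the direction of the division genes, and Myc in that of the 18 light zone activation genes. Of those, 17 rose (94.4%) and 0 fell in each genotype, where 21.2% of all genes rose in controls and 48.8% in mutants. These genes were listed for their activity in the light zone and include Cd86, a gene of the sort, so their rise follows from the choice.

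**Figure D5:**
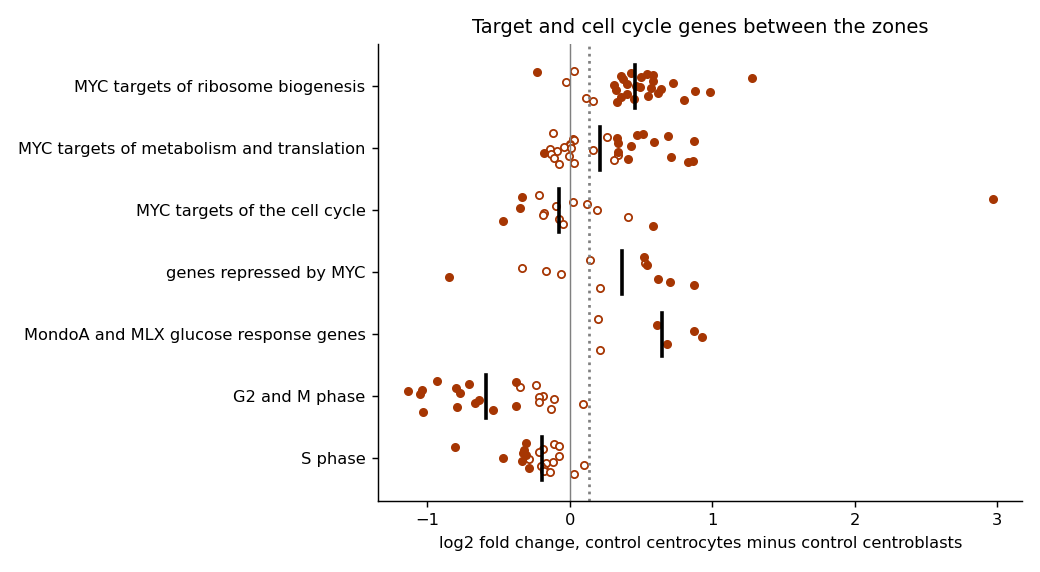
Log2 fold change of TPM + 1 from control centroblasts to control centrocytes (horizontal axis) for each tested gene (points, filled where the adjusted p was under 0.05) of 5 lists of target genes and 2 lists of cell cycle genes; black bars are list medians and the dotted line the median of all 11386 genes. Ribosome biogenesis genes lie mostly right of 0 (25 of 30 rose), G2 and M phase genes mostly left (14 of 22 fell), and the point near 3 is Ccnd2.

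Of 12 tested genes that MYC is known to repress, 5 rose (41.7%) and 1 fell (8.33%) in controls, against 21.2% and 9.48% of all genes, with a median of 0.362 against 0.136. In mutants 7 rose (58.3%) and 2 fell (16.7%), near the 48.8% and 12.6% of all genes, with a median of 0.536 against 0.336. Ndrg1 rose by 0.87, Itgb1 by 0.62, Cdkn1b, the gene of the cell cycle inhibitor p27, by 0.54, and Btg1 by 0.52 in controls, and Mxd4, a member of the network, is also on this list. Gadd45b, a stress response gene, fell (-0.85, adjusted p = 1.11e-05). Genes that MondoA and MLX induce in response to glucose rose or did not pass: of 6 tested, 4 rose in controls (Klf10 by 0.93, Hk2 by 0.87, Pfkfb3 by 0.68 and Fasn by 0.61) and 5 in mutants, where Txnip, the best known of them, was added at 0.51 (adjusted p = 0.00155; 0.33, adjusted p = 0.00734, without mutant centroblasts 4 and 5). These rises were 66.7% and 83.3% of the 6, where 21.2% and 48.8% of all genes rose. Hk2 is also on the list of MYC targets.

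The partners through which the repressors act changed in both directions. Of 19 SIN3 and NCOR subunits 3 rose (15.8%) and 4 fell (21.1%) in controls, beside 21.2% and 9.48% of all genes, and 8 rose (42.1%) and 4 fell in mutants, beside 48.8% and 12.6%. In controls Suds3 and Rbbp4, core subunits, fell (-0.43 and -0.44), Sap30 fell (-0.52), and Arid4b and Fam60a rose (0.65 and 0.62). Of 12 subunits of the polycomb complex of MGA and E2F6, 3 rose and 0 fell in controls, namely Rnf2 by 0.50, Ring1 by 0.26 and Rybp by 0.50, and 6 rose in mutants, where Pcgf6 was added at 0.51 (adjusted p = 0.0013; 0.31, adjusted p = 0.0122, without mutant centroblasts 4 and 5). These rises were 25% and 50% of the 12, close to the 21.2% and 48.8% of all genes. Germline genes that this complex is known to silence were low: 1 of 15, Stag3, passed the filter. The summed level of the 15 was 0.66 to 1.77 TPM in control centroblasts and 0.931 to 3.89 in mutant centroblasts. In control and mutant centrocytes it was 1.11 to 3.11 and 1.42 to 10 TPM. Their promoters held CACGTG in 10 of 15 (66.7%), beside 8.09% of all genes with a promoter and 12.2% of tested genes.

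Factors that act with MYC or on it had more calls between the zones of mutants than of controls, as did genes in general. Of 14 MYC coactivators 1 rose in controls, the acetyltransferase gene Kat2a (0.74, adjusted p = 0.000475), and 6 rose (42.9%) and 1 fell in mutants, beside 48.8% and 12.6% of all genes. Of 16 genes of MYC protein turnover 4 rose (25%) and 3 fell (18.8%) in controls, beside 21.2% and 9.48% of all genes. The kinase genes Aurka and Pim1 fell (-0.93 and -0.63), while the deubiquitinase gene Usp36 rose by 0.63 and the ubiquitin ligase genes Fbxo32 and Fbxw7 each rose by 0.61. Of 9 tested direct partners outside the 10 members, Tfap4 and Mycbp2 rose in controls (0.58 and 0.91), which is 22.2%, near the 21.2% of all genes. Of 21 factors known to act on Myc transcription 5 rose and 0 fell in controls: Irf4 by 1.38, Prdm1 by 1.20, Rel by 0.99, Ebf1 by 0.72 and Nfkb1 by 0.47. That is 23.8% of the list, close to the 21.2% of all genes that rose. Bcl6, which represses Myc, was 322 ± 49.2 TPM (SD, n = 5) in control centroblasts and 339.9 ± 24.8 in control centrocytes (0.09, adjusted p = 0.693).

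The split of these cofactor lists depended on the scale. Under median-of-ratios scaling in controls, 1 coactivator rose and 5 fell, 4 SIN3 and NCOR subunits rose and 4 fell, 2 polycomb subunits rose and 2 fell, 4 turnover genes rose and 4 fell, and 5 factors that act on Myc rose and 3 fell. Falls were also more common over all genes under that scaling, where 2212 of 11386 rose and 1830 fell, in place of 2419 and 1079. In mutants without centroblasts 4 and 5, 5 coactivators rose and 2 fell, 8 SIN3 and NCOR subunits rose and 4 fell, 5 polycomb subunits rose and 2 fell, 7 turnover genes rose and 3 fell, and 5 of 6 MondoA and MLX genes rose. The targets in metabolism and translation then showed 16 rises (50%) and 0 falls, and the genes repressed by MYC 6 (50%) and 2 (16.7%). Of all 11386 genes 4079 rose and 1694 fell in that fit.

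Between the genotypes, few genes around the network passed the test. In centroblasts Bin1, a MYC partner, fell (-0.32, adjusted p = 0.0392), as did Sap30 of the SIN3 complex (-0.52, adjusted p = 0.0414). Among genes that MYC is known to repress, Cdkn1b fell from 23.4 ± 2.55 to 14.8 ± 2.0 TPM (SD, n = 5; -0.63, adjusted p = 0.0144) and Btg2 from 132 ± 8.29 to 86.3 ± 28.8 (-0.69, adjusted p = 0.0286). Smad3 and Nfkb1, from the factors that act on Myc, also fell (-0.88 and -0.50, adjusted p = 0.0102 and 0.0459). Without mutant centroblasts 4 and 5, Cdkn1b (-0.57), Btg2 (-0.31), Smad3 (-0.80) and Bin1 (-0.31) were still called, and Sap30 and Nfkb1 were not (adjusted p = 0.168 and 0.186). Under median-of-ratios scaling Bin1 and Sap30 were not called (adjusted p = 0.365 and 0.11). Without mutant centroblasts 4 and 5, 1 ribosome biogenesis gene, 3 genes of metabolism and translation and 1 cell cycle target rose in centroblasts. In that fit 3 of 12 repressed genes (25%), 1 direct partner and 1 factor that acts on Myc fell. Of all 11386 genes 242 rose and 164 fell there. Under median-of-ratios scaling 1 coactivator, 2 ribosome biogenesis genes and 3 genes of metabolism and translation rose in centroblasts. With that scaling 2 repressed genes and 3 factors that act on Myc fell, and of all genes 282 rose and 324 fell. In centrocytes no gene of the target, partner or cofactor lists was called, where 1.20% of all genes were. Without mutant centroblasts 4 and 5, 385 of all genes were called there in place of 137, 258 higher and 127 lower. Calls in these lists were then 1 direct partner, 3 ribosome biogenesis genes and 3 genes of metabolism and translation, all higher, 2 cell cycle targets higher and 1 lower, 1 repressed gene lower and 1 factor that acts on Myc higher. Under median-of-ratios scaling they were 1 partner, 2 ribosome biogenesis genes, 1 gene of metabolism and translation and 2 cell cycle targets, all higher. Higher was also the more common direction over all genes under that scaling, with 149 higher and 47 lower. Batf, an activation gene of the light zone list, rose in both zones (0.85 and 0.72, adjusted p = 0.0013 and 0.00516), Egr1 of that list fell in centroblasts (-0.72, adjusted p = 0.0166, and 0.0626 without mutant centroblasts 4 and 5), and the mitotic gene Cdc20 fell in centrocytes (-0.42, adjusted p = 0.0323). The call of Cdc20 was lost under median-of-ratios scaling (-0.43, adjusted p = 0.0719). Without mutant centroblasts 4 and 5, 8 of the 22 G2 and M phase genes (36.4%) fell in centrocytes, where 127 of 11386 genes fell. Of the 30 ribosome biogenesis genes 0 were called between genotypes in centrocytes, with a median log2 fold change of 0.224 where that of all genes was 0.016. Ccnd2 was 21.8 ± 4.19 TPM (SD, n = 5) in control and 54.2 ± 15.4 in mutant centrocytes, and its difference missed the threshold (1.25, adjusted p = 0.0507).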

How the data were processed

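RNA was measured in 20 libraries of sorted germinal centre B cells. Per the labels' protocols they were made with a stranded mRNA kit. The submitters' processing notes name STAR and build mm10. Versions, annotation and counting tool are not stated there. The deposited files hold TPM per gene symbol, normalized by the authors to the same total in every library. TPM keeps no read depth, so no counting interval is given. No 2 libraries had identical values.

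Groups came from the labels. limma 3.58.1 in R 4.3.3 was fitted to log2(TPM + 1) with a mean for each of the 4 groups and a trended, robust variance (16 residual degrees of freedom, two-sided). Genes needed at least 1 TPM in at least 5 libraries, and calls an adjusted p under 0.05. In simulated data with 200 changed genes of 11386, changes of 1 on the log2 scale were called in 95% of cases in the genotype comparison of centroblasts, 91.5% in that of centrocytes, 70.5% for their difference and 91.5% between the zones, and those of 0.5 in 38.5%, 44.5%, 7.5%, and 50% and 46% in controls and mutants. The changed genes were drawn above a set mean level, which Mxd1 and Mxi1 did not reach. Noise was drawn separately for each library, so a shift shared by many genes, as in mutant centroblasts 4 and 5, was absent. These rates therefore do not give the sensitivity for those 2 members or for the real centroblast comparison. The 10 members and the gene lists were chosen with earlier results of these data known. Of 333 list entries, 320 matched by current and 9 by older symbol. A gene that met the rule for named genes is not reported here. Named genes were the members, Myd88, Cxcr4 and Cd86, up to 4 called genes per list and comparison by adjusted p, and the 6 genes with the highest Pearson's r to Myc, Mxd3 and Mxd4. Fbxw7, Ebf1 and Nfkb1 between the zones, Sap30 and Fam60a, Pim1, Pcgf6, Ldha, Odc1, Bcl6, Ccnd2 between genotypes, Mlxip, Itgb1, and the marker sums were added with values in view. Alternatives were other pseudocounts (0.1, 0.5), no filter or one of 5 TPM, median-of-ratios scaling, an untrended fit, fits of 2 groups alone, library weights, a replicate block, and leaving out libraries.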

Additional observations from a re-analysis of the deposited data

Results flagged for a closer look

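In groups of 5 libraries, the highest or lowest value was compared with its nearest neighbour, and a gap over 0.71 of the group's range singled the value out. This happened in 3 of 48 groups of member values and ratios examined, and chance gives about 1 in 20 groups. Mga was 19.6 TPM in control centroblast 2, where the other 4 libraries lay between 10.6 and 12. Mxi1 was 3.37 TPM in the same library, where the others lay between 2.45 and 2.69. Mxd3 was 116 TPM in control centrocyte 1, where the others lay between 99.2 and 104.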

How the results depend on the processing

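The log2 fold changes of members kept their direction and their side of the threshold in 397 of 436 values under the settings that changed the analysis, with 28 turned in direction, and in 869 of 900 values when a library was left out, with 11 turned. The replicate block changed no member's call. In centroblast and centrocyte libraries of the same number the deviations correlated between -0.0168 and 0.259 in controls and between -2.93e-05 and 0.269 in mutants. In each genotype 4 of 5 of these values were over 0.1, while libraries of different numbers averaged -0.0404 in controls and -0.0433 in mutants. Of 5 control libraries 4, and of 5 mutant libraries 2, correlated best with their own number. The labels state no shared origin, so the main fit used no pairs, and whether the numbers mark pairs is not known.

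The number of genes called between genotypes in centroblasts was 270 without a filter, 24 with the 2 groups alone, 878 with library weights and 33 with the replicate block. In centrocytes it was 83 with a pseudocount of 0.1, 84 with a filter of 5 TPM, 301 with the 2 groups alone, 662 with library weights, 385 without mutant centroblasts 4 and 5 and 659 with the replicate block. For the difference it was 0 with median-of-ratios scaling and with the untrended fit, 9 with weights, 4 without those libraries and 14 with the block, and for the zones in controls 6496 with weights and 5418 without those libraries. Leaving out a library gave 147 to 3102 in centroblasts, 46 to 237 in centrocytes, 0 to 7 for the difference, 2637 to 4726 for zones in controls and 6297 to 7346 in mutants. Members called ranged from 0 to 4 in centroblasts and from 3 to 5 between zones in controls. The cause of these shifts was not tested.

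Directions turned as follows, in the order median-of-ratios scaling, library weights and without mutant centroblasts 4 and 5. In centroblasts, mutant against control, Myc was 0.147, 0.263 and 0.352, Max 0.005, 0.09 and 0.089, Mxd1 0.018, 0.181 and 0.16, and Mlx 0.076, 0.03 and 0.009, and Mxi1 was 0.09 and 0.051 under the last 2. For the difference Mlx was -0.125, -0.09 and -0.042, Myc -0.086 and -0.148 under the last 2, and Max -0.006 and Mxi1 -0.05 with weights. Between zones in mutants Mxi1 was -0.177, -0.243 and -0.23, and Mlx -0.289, -0.129 and -0.089, and in controls Max was -0.015 under the scaling. Leaving out a library moved Myc between -0.164 and 0.122 and Mxd1 between -0.241 and 0.065 in centroblasts, Mlx between -0.057 and 0.002 in centrocytes and between -0.027 and 0.136 for the difference, and in mutants between zones Mxi1 between -0.098 and 0.125 and Mlx between -0.075 and 0.088. Without Mga the ratio of MYC genes to repressor genes was 0.336 in control and 0.447 in mutant centrocytes. Read depth is unknown, and members under 5 TPM (Mxd1, Mxi1) are the least precise.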
